A study of Homo sapiens with 2 samples.

Results

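The cell cycle genes described here comprised 40 listed symbols, 16 genes of S phase and 24 genes of G2 and mitosis (G2/M), all of which were found among the 61487 genes annotated in both libraries. Members were chosen by name, with earlier results of these data known. S phase genes build the machinery that copies DNA: the MCM helicase that unwinds it, the PCNA clamp that holds the polymerases on it, and the enzymes that supply its nucleotides. G2/M genes encode the cyclins and kinases that drive mitosis, the motors and centromere proteins that move chromosomes, and the ubiquitin ligase parts that end it. Serotonin neurons arise from ventral hindbrain progenitors that divide, and the neurons themselves are postmitotic, so RNA of both gene sets is usually found in progenitors and other dividing cells.

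Both libraries came from WA09 (H9) human pluripotent stem cells carrying a TPH2-EGFP knock-in, differentiated toward serotonin neurons and sorted for EGFP at day 42. The culture medium of the last stage contained DAPT, a blocker of Notch signalling, in both, and the dose of the SHH agonist purmorphamine used for these libraries was not given in the sources used here. The WT-labelled library carried the reporter alone. The FKO-labelled library carried the reporter in a FOXA2 knockout line, picked and expanded as a clone after Cas9 cutting and end joining introduced a premature stop codon. FOXA2 RNA was nevertheless higher in the FKO-labelled library. It had 334 UMIs, or 4.35 UMIs per 1000000 UMIs of the kept cells (CPM), in the WT-labelled library. In the FKO-labelled library it had 1265 UMIs, or 21.8 CPM, which put the log2 ratio at 2.33 (2.15 to 2.51). FOXA2 RNA alone does not show whether protein was made. By immunostaining at an earlier stage, the paper reported FOXA2 in wild-type cells given purmorphamine and not in its knockout lines. Other floor plate genes ran both ways: SHH had 5.91 and 2.75 CPM and CORIN 3.36 and 0.794, while FOXA1 had 2.45 and 9.07, NTN1 5.30 and 12.2, SPON1 27.8 in both and FERD3L 12 and 15 UMIs. A swap of the labels, which would turn every direction between the libraries given here, was not tested, and the groups are called by their labels throughout.

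The WT-labelled library held 11052 barcodes and 123064653 UMIs, with a median of 10959.5 UMIs per barcode, and the FKO-labelled library held 8806 barcodes and 70588747 UMIs, with a median of 6669.5. After filtering, 5749 cells (52.0%) with a median of 12460 UMIs were kept from the WT-labelled library and 6978 cells (79.2%) with a median of 6927 UMIs from the FKO-labelled library. Shares of cells in which a gene is detected therefore rest on unequal depth, and they are given both as measured and after each cell was thinned at random to 2000 UMIs. The libraries shared 21 barcodes among those deposited, 5 among the kept cells, and 0 among the cells with 8 or more G2/M genes described further on. Each group was 1 library with no replicate, so no test was made. The 95% intervals given are exact and reflect counting error alone, and genotype and library cannot be told apart.

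S phase genes together gave 10202 UMIs in the kept WT-labelled cells and 9209 in the FKO-labelled ones, or 133 (130 to 135) and 159 (156 to 162) CPM. G2/M genes gave 13594 and 11944 UMIs, or 177 (174 to 180) and 206 (203 to 210) CPM. Both sums were thus slightly higher in the FKO-labelled library, with log2 ratios of 0.26 (0.22 to 0.30) for S genes and 0.22 (0.19 to 0.26) for G2/M genes, and both turned to the other side, -0.21 and -0.25, when scaled to the median gene ratio. That median, over the 9676 genes that reached a CPM of 10 in 1 library or both, was itself 0.47. With a mitochondrial share of at most 5% required, both sums were lower in the FKO-labelled library, at -0.32 and -1.31, but this left 340 cells labelled WT, 8 of them with 8 or more G2/M genes, against 2888 labelled FKO with 25. Barcodes of the 2 libraries differed in mitochondrial share, and its part in the result was not tested. Without cells with 3 or more glial or mesenchymal genes, an exclusion described further on, the G2/M ratio turned to -0.36 (-0.40 to -0.32). The S ratio was then 0.12 (0.08 to 0.16).

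The members differed widely around these sums. Among the 15 members that reached a CPM of 10 in 1 library or both, 2 (MKI67 and CENPE) were at least 2-fold higher in the FKO-labelled library. The share of all genes was 20.7%. At least 2-fold lower were 0, against 1.74%. MKI67 (4.69 and 14.0 CPM) and CENPE (8.80 and 22.2) reached a CPM of 10 in the FKO-labelled library alone. Their count thus rests in part on the limit, which was applied to all genes alike. With every gene above 3 UMIs counted, all 40 members qualified and 3 were at least 2-fold higher (ANLN in addition), against 40.5% of all genes, with 0 lower against 4.3%. Relative to the median gene, 1 of the 15 (MKI67) was at least 2-fold higher, against 5.75% of all genes. At least 2-fold lower were 2 (PCNA and TYMS), against 9.7%. TYMS (10.8 and 6.98 CPM) reached the limit in the WT-labelled library alone. Members past 2-fold were thus few, and their counts were near or under what the shares of all genes would give.

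**Figure D1:**
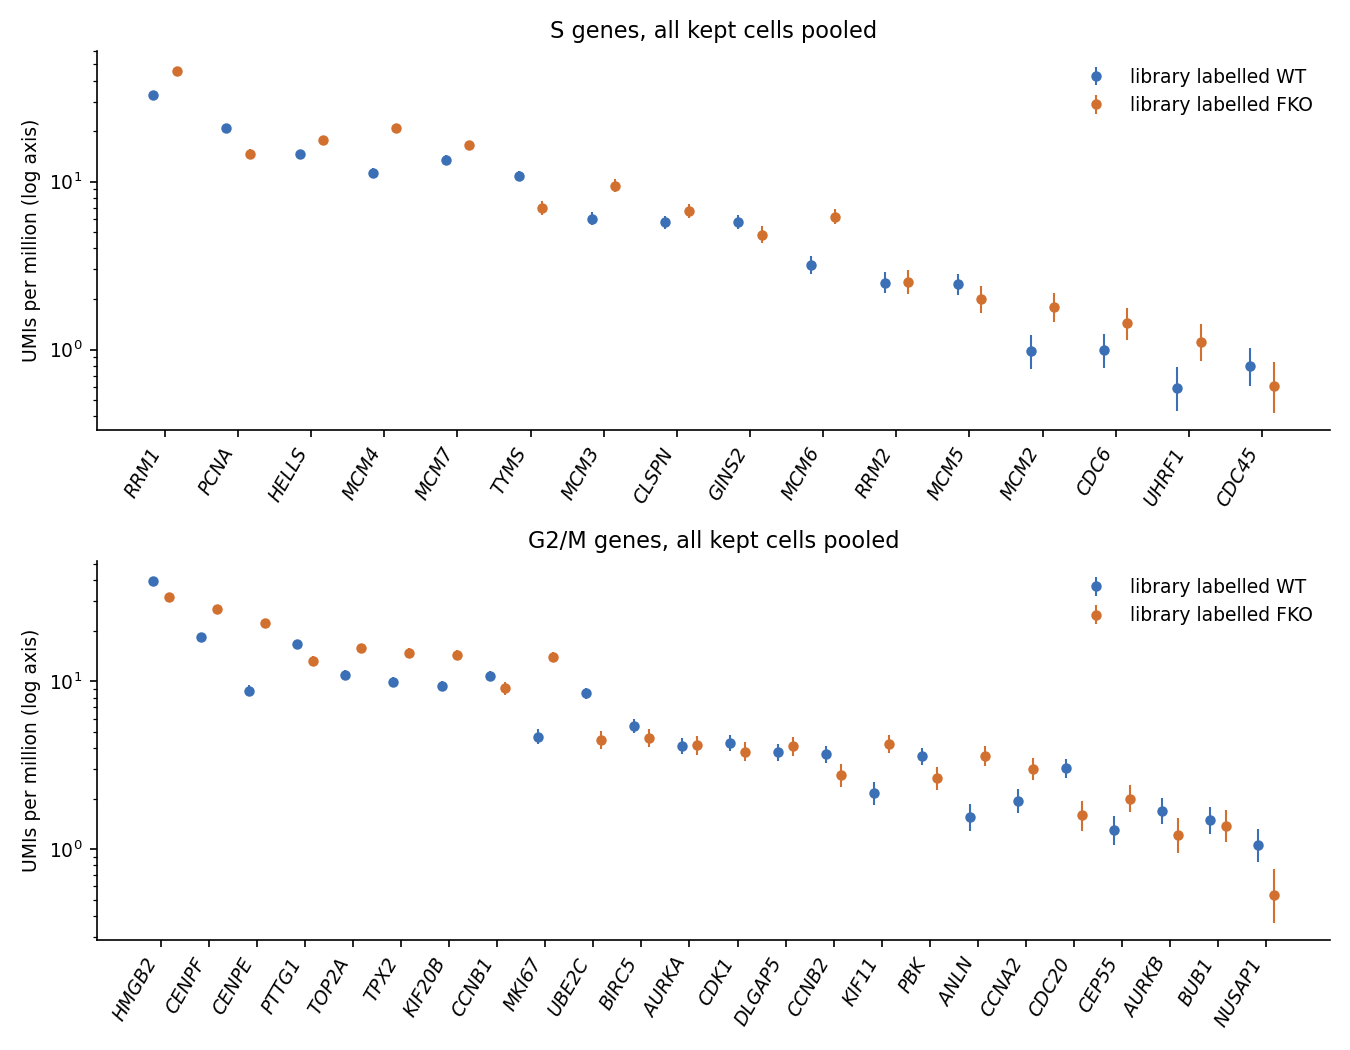
Pooled level of each S gene (top) and G2/M gene (bottom) in CPM on a log axis, for the kept cells of the WT-labelled library (blue) and the FKO-labelled library (orange), with exact 95% counting intervals. MKI67 stands at 4.69 and 14.0, and PCNA at 21.0 and 14.6.

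Of the 6 MCM genes, 5 stood higher in the FKO-labelled library as measured, and 4 of them also relative to the median gene. MCM4, a helicase subunit, had 11.3 CPM (10.6 to 12.1) in the WT-labelled library and 20.9 (19.7 to 22.1) in the FKO-labelled library, a log2 ratio of 0.88 (0.76 to 1.01). MCM6 had 3.20 and 6.20 CPM (log2 0.95, 0.71 to 1.19), and MCM2 had 0.977 and 1.80 CPM on 75 and 104 UMIs (log2 0.88, 0.44 to 1.33). These ratios exceeded that of the median gene by 0.41, 0.48 and 0.40. MCM3 lay closer to it, with a log2 ratio of 0.65, and MCM7 changed side with the scale, at 0.29 as measured and -0.18 relative to the median gene. MCM5 had 2.45 and 1.99 CPM, and the interval of its log2 ratio, -0.65 to 0.04, included 0.

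Genes that serve the fork and its nucleotide supply did not move together. PCNA, the sliding clamp, had 21.0 CPM (20 to 22.1) in the WT-labelled library and 14.6 (13.6 to 15.6) in the FKO-labelled library, a log2 ratio of -0.53 (-0.65 to -0.41). TYMS, which makes thymidylate, had 10.8 (10.0 to 11.5) and 6.98 (6.31 to 7.69) CPM, a log2 ratio of -0.62 (-0.80 to -0.45). Both were lower in the FKO-labelled library on each scale used. RRM1, the large subunit of ribonucleotide reductase, made up the largest share of the S gene sum, 24.6% and 28.8%, with 32.7 and 45.8 CPM and a log2 ratio of 0.49 that equalled that of the median gene to within 0.01. Without RRM1 the S gene ratio was 0.18. RRM2, the subunit whose amount follows the cell cycle, had 2.5 and 2.52 CPM, a log2 ratio of 0.01 as measured and -0.46 relative to the median gene.

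The remaining S genes license, fire or guard replication. GINS2, part of the active helicase, had 5.77 and 4.84 CPM (log2 -0.25, -0.48 to -0.04). CDC45, its partner, had 61 and 35 UMIs, and the interval of its ratio, -1.04 to 0.23, included 0. CDC6, which loads the helicase, and UHRF1, which carries DNA methylation through replication, had log2 ratios of 0.53 and 0.92 on 76 and 45 UMIs in the WT-labelled library. CLSPN, a checkpoint mediator, and HELLS, a chromatin remodeller, had ratios of 0.23 and 0.28, which became -0.25 and -0.19 relative to the median gene. In all, 11 of the 16 S genes were higher and 5 lower in the FKO-labelled library, with a median log2 ratio of 0.29. Of the 16, 7 exceeded the all-gene median of 0.47 and 4 that of 0.80 over the 28465 genes with more than 3 UMIs.

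Among G2/M genes, MKI67 showed the largest ratio of all 40 members. The gene, whose protein coats mitotic chromosomes and is a common marker of dividing cells, had 360 UMIs, or 4.69 CPM (4.22 to 5.20), in the WT-labelled library and 808 UMIs, or 14.0 CPM (13.0 to 14.9), in the FKO-labelled library, a log2 ratio of 1.57 (1.39 to 1.76). CENPE, a kinetochore motor, had 8.80 (8.15 to 9.49) and 22.2 (21.0 to 23.4) CPM, a log2 ratio of 1.33 (1.20 to 1.47). ANLN, a scaffold of the cleavage furrow, had 1.55 and 3.61 CPM (log2 1.22), and KIF11, the motor that parts the spindle poles, had 2.15 and 4.23 CPM (log2 0.98). All 4 were also higher relative to the median gene. KIF20B, another mitotic kinesin, CENPF, a kinetochore protein, TPX2, a spindle assembly factor, TOP2A, which untangles DNA, and CEP55, which acts in abscission, had ratios between 0.52 and 0.62, within 0.15 of the median gene.

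Other G2/M genes were lower in the FKO-labelled library. UBE2C, the ubiquitin-conjugating enzyme of the anaphase-promoting complex, had 653 UMIs, or 8.50 CPM (7.86 to 9.18), in the WT-labelled library and 260 UMIs, or 4.49 CPM (3.96 to 5.07), in the FKO-labelled library, a log2 ratio of -0.92 (-1.13 to -0.71). CDC20, an activator of that complex, had 3.05 (2.67 to 3.46) and 1.59 (1.28 to 1.95) CPM, a log2 ratio of -0.94. PTTG1, the securin that the complex destroys, had 16.7 and 13.3 CPM (log2 -0.33, -0.46 to -0.20). NUSAP1, which bundles spindle microtubules, had a ratio of -0.98 on 81 and 31 UMIs. HMGB2, a chromatin protein that made up 22.5% and 15.4% of the G2/M sum, had 39.9 and 31.8 CPM, a log2 ratio of -0.33, and without it the G2/M ratio was 0.35.

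The cyclins and kinases lay between these extremes. CCNB1, a mitotic cyclin, had 10.8 and 9.10 CPM and a log2 ratio of -0.24 (-0.40 to -0.08), and its relative CCNB2 had a ratio of -0.42 (-0.70 to -0.13). CCNA2, the cyclin of S phase and G2, was on the other side at 0.63 (0.31 to 0.96). CDK1, the kinase these cyclins switch on, had 4.30 and 3.82 CPM, and the interval of its ratio, -0.42 to 0.08, included 0, as did those of the checkpoint kinase BUB1 and of AURKA, a spindle pole kinase. AURKB and BIRC5, partners in the chromosomal passenger complex, and the mitotic kinase PBK had ratios of -0.49, -0.23 and -0.44. DLGAP5, a spindle protein, had a ratio of 0.12 as measured and -0.35 relative to the median gene. Of the 24 G2/M genes, 12 were higher and 12 lower, with a median log2 ratio of -0.04, and 10 exceeded the all-gene median of 0.47 and 4 that of 0.80.

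The ratios of the G2/M genes followed gene length. Across the 24 genes the log2 ratio rose with the length of the gene, with a Spearman correlation of 0.65, against 0.14 across the 16 S genes and 0.49 across 9347 genes with a known length. These are correlations across genes, which are not independent replicates. The 12 longest G2/M genes, of 29.4 to 92.5 kb, had a median ratio of 0.59 with 10 higher in the FKO-labelled library, and the 12 shortest, of 2.98 to 28.2 kb, had a median of -0.33 with 2 higher. The relation between length and ratio was thus present in genes at large, and its part in the differences among members was not tested.

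Few cells held many members. In the kept cells, 277 of 5749 labelled WT (4.82%, 4.28 to 5.40) and 302 of 6978 labelled FKO (4.33%, 3.86 to 4.83) had 3 or more G2/M genes detected, at median depths of 17843 and 13443 UMIs. For S genes, 716 cells (12.5%, 11.6 to 13.3) and 586 cells (8.40%, 7.76 to 9.07) had 3 or more, at median depths of 15887 and 12437 UMIs. These cells were deeper than the rest, and the shares fell when depth was made equal. After thinning to 2000 UMIs, 45 of 5706 cells (0.789%, 0.576 to 1.05) and 74 of 6862 cells (1.08%, 0.848 to 1.35) had 3 or more G2/M genes, and 40 (0.701%) and 54 (0.787%) had 3 or more S genes. The order of the libraries turned with depth. The intervals overlapped at 2000 UMIs, but not at 5000, where the G2/M shares were 1.22% (0.949 to 1.55) and 2.15% (1.78 to 2.56) and the S shares 1.83% (1.5 to 2.22) and 2.90% (2.48 to 3.37). The thinning to 5000 UMIs left out 180 and 1392 shallower cells.

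Most cells with 3 or more genes of one list lacked 3 of the other. In the WT-labelled library, 110 cells had 3 or more of both lists, 606 of S genes alone and 167 of G2/M genes alone. In the FKO-labelled library the counts were 146, 440 and 156. The number of cells fell steeply with the number of G2/M genes and then ran out in a long tail: 747 and 629 cells had 2, 215 and 190 had 3 or 4, 11 and 33 had 5 to 7, and 51 and 79 had 8 or more. The last class, chosen after these counts were seen, made up 0.887% (0.661 to 1.16) and 1.13% (0.897 to 1.41) of the kept cells, and 37 and 43 of its cells had 16 or more of the 24 genes. These are called 8-gene cells from here on. They had a median of 11 S genes in the WT-labelled library and 8 in the FKO-labelled library, against 2 in cells with 3 or 4 G2/M genes and 1 in cells with none, in both libraries.

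**Figure D2:**
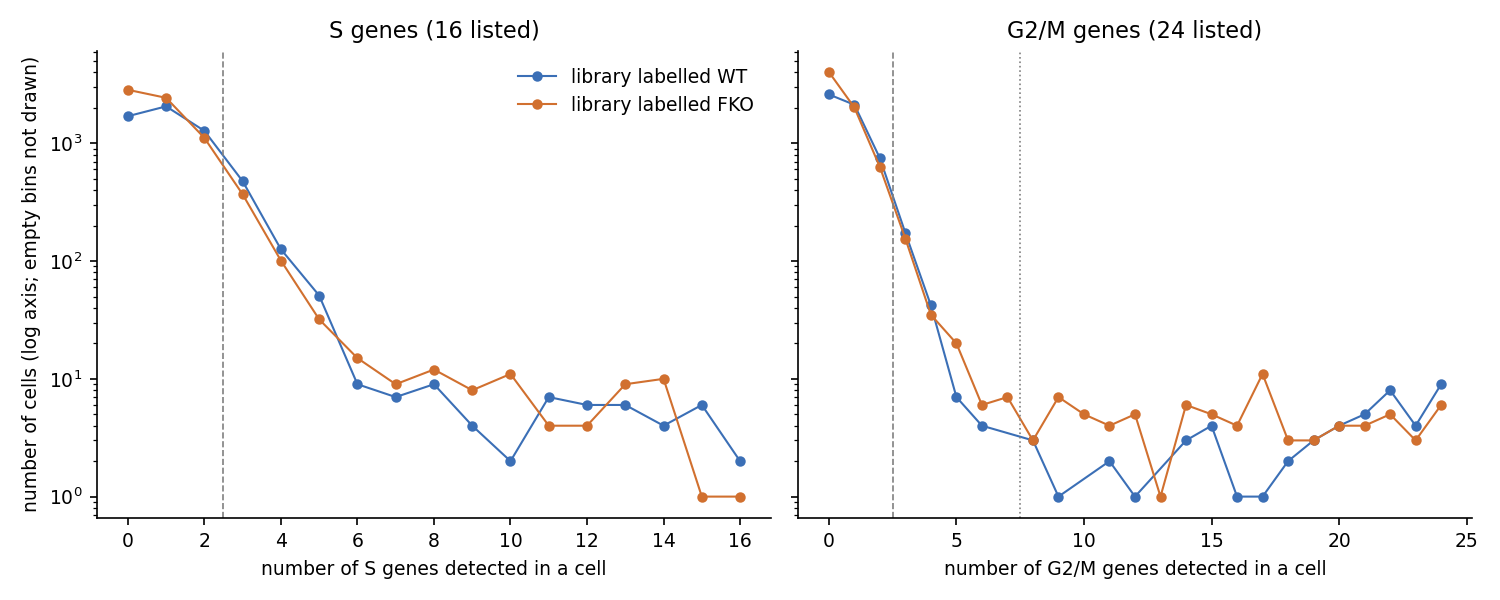
Number of kept cells (log axis) by the number of S genes (left) or G2/M genes (right) detected in a cell, unthinned, for the WT-labelled library (blue) and the FKO-labelled library (orange); the dashed line marks 3 genes and the dotted line 8. In the right panel 11 and 33 cells lie between 5 and 7 genes, and 51 and 79 cells have 8 or more.

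The 8-gene cells held a minor share of the S gene RNA, 20.9% of the UMIs in the WT-labelled library and 16.3% in the FKO-labelled library. This was far above their part of the kept cells, 0.887% and 1.13%. Of the UMIs of all genes they held 1123026 of 76805355 and 1315744 of 57909575. Their share of the G2/M UMIs, 61.8% and 60.1%, is raised by the choice of cells through the same genes. Cells with under 3 G2/M genes held 31.6% and 31.3% of the G2/M UMIs and 73.1% and 74.0% of the S gene UMIs. Most S gene RNA therefore came from cells with few G2/M genes, which were most of the kept cells. Their S gene level was low, at 104 and 129 CPM. Within the 8-gene cells the summed G2/M level was 7475 and 5457 CPM and the S gene level 1895 and 1143 CPM, lower in the FKO-labelled library by log2 ratios of -0.45 and -0.73. In cells with under 3 G2/M genes the ratios were 0.23 and 0.30 and in cells with 3 to 7 they were 0.45 and 0.77. These classes were chosen by the number of G2/M genes at unequal depth, so the ratios of the G2/M sum within them are not free of that choice.

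Members differed in how far their RNA was confined to such cells, here chosen for each G2/M gene by the other members. DLGAP5 had 93.8% and 94.5% of its UMIs there, CEP55 95% and 93.1%, MKI67 94.7% and 92.1%, and TOP2A 94.3% and 91.3%. These genes were almost absent elsewhere: MKI67 was detected in 0.154% and 0.469% of cells with none of the other G2/M genes, and CEP55 in 0.0384% and 0.0248%. KIF20B lay at the other end with 15.5% and 16%, followed by CENPE with 28.0% and 19.1%, HMGB2 with 34.5% and 29.5%, and AURKA with 41.1% and 37.3%. CENPE, the gene with the second largest ratio between the libraries, was thus mostly read outside the 8-gene cells. In cells with none of the other G2/M genes it had 6.28 and 16.9 CPM, against 168 and 188 in the 8-gene cells.

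S genes covered the same span. RRM2 had 93.2% and 82.9% of its UMIs in the 8-gene cells, CDC45 95.1% and 65.7%, TYMS 65.5% and 57.7%, and CDC6 60.5% and 47.0%. The other S genes were read mainly elsewhere, except UHRF1 in the FKO-labelled library (37.8% and 51.6%), down to PCNA with 9.29% and 12.7%, MCM4 with 12% and 9.93% and RRM1 with 7.88% and 5.62%. In cells with no G2/M gene RRM1 was still detected in 28.7% and 24.8% and PCNA in 19.3% and 7.91%. Within the S list, RRM2 and CDC45 thus came near the most confined G2/M genes in the WT-labelled library and less so in the FKO-labelled library. RRM1, PCNA and the MCM genes had most of their UMIs outside the 8-gene cells, which were few. By level they were all higher in the 8-gene cells than in cells with no G2/M gene in both libraries. PCNA had 134 against 18.5 and 81.3 against 11.9 CPM, and RRM1 had 176 against 29.5 and 113 against 43.7. MCM4 had 92.6 against 10.4 and 91.2 against 18.0 CPM.

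**Figure D3:**
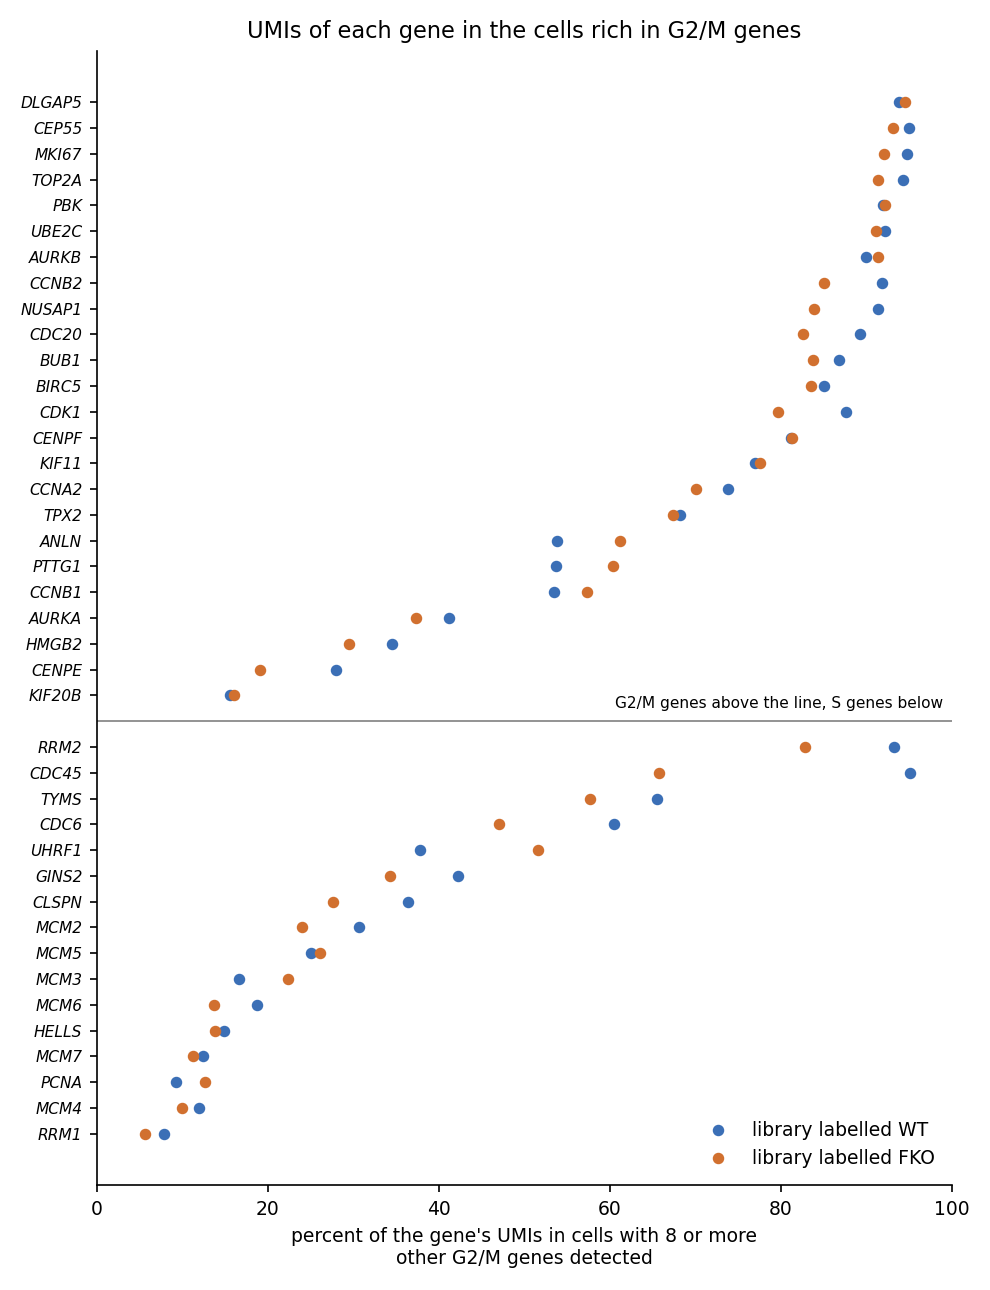
Percent of each gene's UMIs that lay in cells with 8 or more other G2/M genes, G2/M genes above the line and S genes below, for the WT-labelled library (blue) and the FKO-labelled library (orange). KIF20B stands at 15.5 and 16, DLGAP5 at 93.8 and 94.5, RRM1 at 7.88 and 5.62, and RRM2 at 93.2 and 82.9.

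Within these cells the ratios between the libraries shifted downward. MKI67 had 304 CPM in the WT-labelled library and 575 CPM in the FKO-labelled library, a log2 ratio of 0.92 (0.73 to 1.11), and ANLN had 59.7 and 97.7 CPM, a ratio of 0.71 (0.27 to 1.16). CENPE had 168 and 188 CPM, a ratio of 0.16 (-0.12 to 0.44). UBE2C had 536 and 181 CPM, a ratio of -1.57, CDC20 186 and 58.2 CPM, a ratio of -1.68, and NUSAP1 67.5 and 19.9 CPM, a ratio of -1.76. Among G2/M genes 5 of 24 were higher, with a median of -0.78, and 2 intervals lay above 0 and 17 below. Among S genes 2 of 16 were higher, with a median of -0.57, and TYMS had 482 and 177 CPM, a ratio of -1.44. The median over 10379 genes within these cells was 0.58, and 1123026 and 1315744 UMIs lay behind the values. No share of all genes with an interval above or below 0 is given here, so the counts stand beside this median alone. Of the 8-gene cells, 3 of 51 and 41 of 79 had 3 or more glial or mesenchymal genes. The part of that difference in these ratios was not tested. Again the 12 longest G2/M genes, with a median of -0.10, stood above the 12 shortest, with -1.08.

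Cell cycle genes are classically regulated through E2F motifs, common in S genes, and through the cell cycle homology region (CHR) with CCAAT boxes, common in G2/M genes. Of the 40 members, 32 matched a RefSeq promoter of build GRCh38.p14, from 250 bases before to 50 after the start, and MCM4, MCM5, UBE2C, BIRC5, HMGB2, AURKA, TPX2 and PBK were missing. An E2F motif (TTTCCCGC or TTTGGCGC, either strand) was present in 10 of 14 S promoters (71.4%), 1 of 18 G2/M promoters (5.56%), that of NUSAP1, and 2.27% of 35116 promoters. The CHR (TTTGAA, either strand) was present in 1 S promoter (7.14%), 12 G2/M promoters (66.7%) and 15.2% of all promoters. CCAAT, on either strand, was present in 12 S promoters (85.7%), 16 G2/M promoters (88.9%) and 34.6% of all. A CHR together with CCAAT was present in 11 G2/M promoters (61.1%), against 5.90% of all. The lists thus differed in E2F and CHR letters and shared CCAAT, and a match of letters describes the window and shows no binding.

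For S genes, 3 promoters are shown: PCNA and MCM6 as genes with the E2F letters that took opposite directions between the libraries, and RRM1, the largest part of the S gene sum, which had no E2F match in its window. Each is the 200 bases before the start, read along the gene from 5′ to 3′, with E2F, CHR and CCAAT matches on either strand in capitals (PCNA on chr20:5126623-5126822, minus strand; MCM6 on chr2:135876444-135876643, minus strand; RRM1 on chr11:4094485-4094684, plus strand).
PCNA: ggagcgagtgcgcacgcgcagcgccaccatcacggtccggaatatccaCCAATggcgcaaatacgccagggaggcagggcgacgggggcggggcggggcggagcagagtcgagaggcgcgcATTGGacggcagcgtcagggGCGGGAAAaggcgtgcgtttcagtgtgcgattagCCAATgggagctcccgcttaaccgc
MCM6: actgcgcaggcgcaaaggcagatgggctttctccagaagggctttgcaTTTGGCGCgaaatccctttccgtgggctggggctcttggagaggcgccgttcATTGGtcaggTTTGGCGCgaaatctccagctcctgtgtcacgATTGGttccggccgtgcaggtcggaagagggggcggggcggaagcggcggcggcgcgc
RRM1: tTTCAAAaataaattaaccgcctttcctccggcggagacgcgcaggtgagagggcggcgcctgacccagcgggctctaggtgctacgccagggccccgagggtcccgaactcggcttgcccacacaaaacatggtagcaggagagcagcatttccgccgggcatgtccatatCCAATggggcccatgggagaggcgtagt
The E2F match of PCNA began 59 bases before the start and those of MCM6 152 and 90 bases before it. RRM1 held CCAAT 28 bases before its start and a CHR match at 199.

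For G2/M genes, 5 promoters are shown in the same way: MKI67, CCNB2 and KIF11 for RNA largely confined to the 8-gene cells, CDC20 as a gene lower in the FKO-labelled library with the same motifs, and CENPE, whose RNA was mostly read elsewhere. They lay at MKI67 on chr10:128126424-128126623, minus strand, CCNB2 on chr15:59104946-59105145, plus strand, CDC20 on chr1:43358781-43358980, plus strand, KIF11 on chr10:92592930-92593129, plus strand, and CENPE on chr4:103198344-103198543, minus strand.
MKI67: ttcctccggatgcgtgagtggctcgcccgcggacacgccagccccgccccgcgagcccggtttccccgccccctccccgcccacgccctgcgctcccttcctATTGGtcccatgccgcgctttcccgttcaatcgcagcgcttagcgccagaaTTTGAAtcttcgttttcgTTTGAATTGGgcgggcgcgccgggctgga
CCNB2: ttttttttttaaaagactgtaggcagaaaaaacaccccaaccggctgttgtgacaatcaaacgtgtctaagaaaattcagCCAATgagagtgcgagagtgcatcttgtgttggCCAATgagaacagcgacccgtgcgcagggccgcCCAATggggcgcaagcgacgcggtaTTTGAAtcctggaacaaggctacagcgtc
CDC20: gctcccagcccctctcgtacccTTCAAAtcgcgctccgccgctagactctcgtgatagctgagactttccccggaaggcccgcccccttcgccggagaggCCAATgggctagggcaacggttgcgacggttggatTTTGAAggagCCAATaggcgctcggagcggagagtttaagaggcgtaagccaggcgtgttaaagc
KIF11: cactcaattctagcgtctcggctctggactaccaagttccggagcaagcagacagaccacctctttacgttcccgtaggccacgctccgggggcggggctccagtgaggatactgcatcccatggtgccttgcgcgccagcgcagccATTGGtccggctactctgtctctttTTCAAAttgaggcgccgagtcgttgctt
CENPE: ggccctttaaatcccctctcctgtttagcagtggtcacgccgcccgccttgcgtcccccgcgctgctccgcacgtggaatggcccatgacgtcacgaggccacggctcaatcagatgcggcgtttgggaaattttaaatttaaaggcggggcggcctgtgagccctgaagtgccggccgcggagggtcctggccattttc
In MKI67, the CHR at 29 and the CCAAT box at 24 bases before the start overlap in 1 run of capitals, TTTGAATTGG. MKI67, with a higher level in the FKO-labelled library, and CDC20, with a lower one, each held 2 CHR and 2 CCAAT matches. CENPE held none of the searched letters, as did MCM2 among the S promoters, against 54.9% of all promoters.

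Co-detection of the G2/M genes with serotonergic genes was frequent by the rule of 3 genes. FEV, the transcription factor that maintains serotonergic identity, was detected in 268 of 277 cells labelled WT (96.8%, 93.9 to 98.5) and in 238 of 302 labelled FKO (78.8%, 73.8 to 83.3) with 3 or more G2/M genes. TPH2, the enzyme that makes serotonin in neurons, was detected in 180 (65.0%, 59.0 to 70.6) and 159 (52.6%, 46.9 to 58.4), both genes in 179 and 154, and neither in 8 (2.89%) and 59 (19.5%). Cells with 3 or more S genes gave like shares, 97.6% and 84.6% for FEV and 70.8% and 56.5% for TPH2. In cells with no G2/M gene, at median depths of 11600 and 6259 UMIs, FEV was detected in 97.4% and 90.9% and TPH2 in 72.0% and 50.4%. By shares alone, cells with 3 or more G2/M genes thus held FEV about as often as cells with none in the WT-labelled library and less often in the FKO-labelled library.

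A share of cells with a UMI does not separate expression from free RNA, so the same share was read in cells of another type as a reference. Cells with 3 or more mesenchymal genes and under 3 G2/M genes, 28 labelled WT and 106 labelled FKO at median depths of 16430 and 8860.5 UMIs, had FEV in 82.1% (63.1 to 93.9) and 50.9% (41.0 to 60.8) and TPH2 in 21.4% and 20.8%. Thinned to 2000 UMIs, FEV remained in 21.4% (8.30 to 41.0) and 26.4% (18.3 to 35.9) of them and TPH2 in 0 of 28, which allows up to 12.3%, and 7.55%. The reference was not free of cells with much FEV in the FKO-labelled library, where 18 of 106 (17.0%, 10.4 to 25.5) reached 631 CPM, percentile 10 of the WT-labelled cells with no G2/M gene, against 1 of 28 (3.57%) in the WT-labelled library. In the WT-labelled library most reference cells also held floor plate genes, with SHH in 24 of 28, SPON1 in 26 and CORIN in 20. In the FKO-labelled library the same genes were found in 5, 32 and 5 of 106. The name mesenchymal cells thus refers only to the list by which they were chosen. The values of the reference are therefore given for comparison and not as a level of free RNA.

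Beside that reference, the cells with 3 or 4 G2/M genes and the 8-gene cells came apart. At 3 or 4 genes, FEV after thinning was found in 83.2% (77.5 to 87.9) of cells labelled WT and 66.3% (59.1 to 73.0) of cells labelled FKO, and TPH2 in 22.0% and 24.2%. Cells with no G2/M gene had 90.4% and 78.0% for FEV, above those intervals in both libraries, and 29.7% and 26.0% for TPH2. In the 8-gene cells, at median depths of 23374 and 12549 UMIs, FEV was found in 49 of 51 (96.1%) and 52 of 79 (65.8%) unthinned, but in 36.0% (22.9 to 50.8) and 34.2% (23.9 to 45.7) after thinning, with intervals that overlapped those of mesenchymal cells. TPH2 went from 33.3% and 26.6% unthinned to 2% and 7.59%. After thinning, the cells with 3 or 4 G2/M genes thus held FEV somewhat less often than cells with none, and the 8-gene cells as a group held both genes less often than either.

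Pooled levels of FEV and TPH2 were also read. FEV had 210 CPM (184 to 239) in the 8-gene cells labelled WT and 455 (420 to 493) in those labelled FKO, against 1667 and 970 in cells with no G2/M gene, 1477 and 812 in cells with 3 or 4 and 169 (134 to 209) and 388 (353 to 424) in mesenchymal cells. TPH2 had 22.3 and 51.7 CPM, against 220 and 169 in cells with no G2/M gene, 155 and 140 in cells with 3 or 4, and 14.0 and 71.3 in mesenchymal cells, so that in the FKO-labelled library it lay under the mesenchymal level. Both genes were lower in the 8-gene cells than in cells without G2/M genes in each library, by log2 ratios of -2.99 and -1.09 for FEV and -3.30 and -1.71 for TPH2.

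Across all genes, the 8-gene cells differed broadly from cells with no G2/M gene. At least 2-fold higher in both libraries were 7.96% of 13232 genes, and at least 2-fold lower were 4.72%. The serotonergic list was lower for 8 of 10 genes in both libraries, with medians of -2.99 and -1.07. GATA3, a regulator of serotonergic fate, had 73.9 CPM against 626 in the WT-labelled library and 502 against 853 in the FKO-labelled library. The neuronal list was at least 2-fold lower for 4 of 11 genes in both libraries, against the 4.72% of all genes. By library, 11 of 11 were lower in the WT-labelled and 4 of 11 in the FKO-labelled one. Its medians were -2.88 and -0.92, against -0.22 and -0.06 over all genes. STMN2, a microtubule regulator of axons, had 440 against 4528 and 2662 against 5859 CPM. Neuronal and serotonergic RNA was thus lower in the 8-gene cells of both libraries and, by pooled levels, more so in the WT-labelled library. By the median cell the gap was about as large in both. The serotonergic sum was 299 against 3216 CPM in the WT-labelled library and 231 against 2709 in the FKO-labelled one. The neuronal sum was 1413 against 11760 and 1811 against 16884.5 CPM.

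Genes of neural progenitors were higher in the 8-gene cells. Of 11 genes with at least 100 UMIs in each library, the limit behind the shares of all genes, 7 were at least 2-fold higher in both, with medians of 1.74 and 1.87. Of 15 genes with a ratio in both libraries, 11 were, with medians of 3.61 and 2.41 over those with a ratio in each. The summed list had 7581 against 783 CPM and 4546 against 953. VIM, the intermediate filament of progenitors and also of glia and mesenchyme, was the most abundant, with 6296 against 482 and 3508 against 696 CPM. HES1, a target of Notch, had 70.3 against 3.08 and 66.9 against 3.12 CPM, and NES, another progenitor filament, 373 against 58.8 and 258 against 38.2. OLIG2, of ventral progenitors, stood at 0 in the 8-gene cells labelled WT. Of the floor plate list, 7 of 7 genes with a ratio in both libraries were at least 2-fold higher in both (6 of 6 with at least 100 UMIs in each), with SPON1 the most abundant at 134 against 17.7 and 153 against 19.2 CPM. The summed floor plate level was 275 against 34.3 and 362 against 63.1 CPM, but 3 or more of these genes were found in only 8 of 51 8-gene cells (15.7%) and 16 of 79 (20.3%), and the median cell had 33.2 and 0 CPM of the list.

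**Figure D4:**
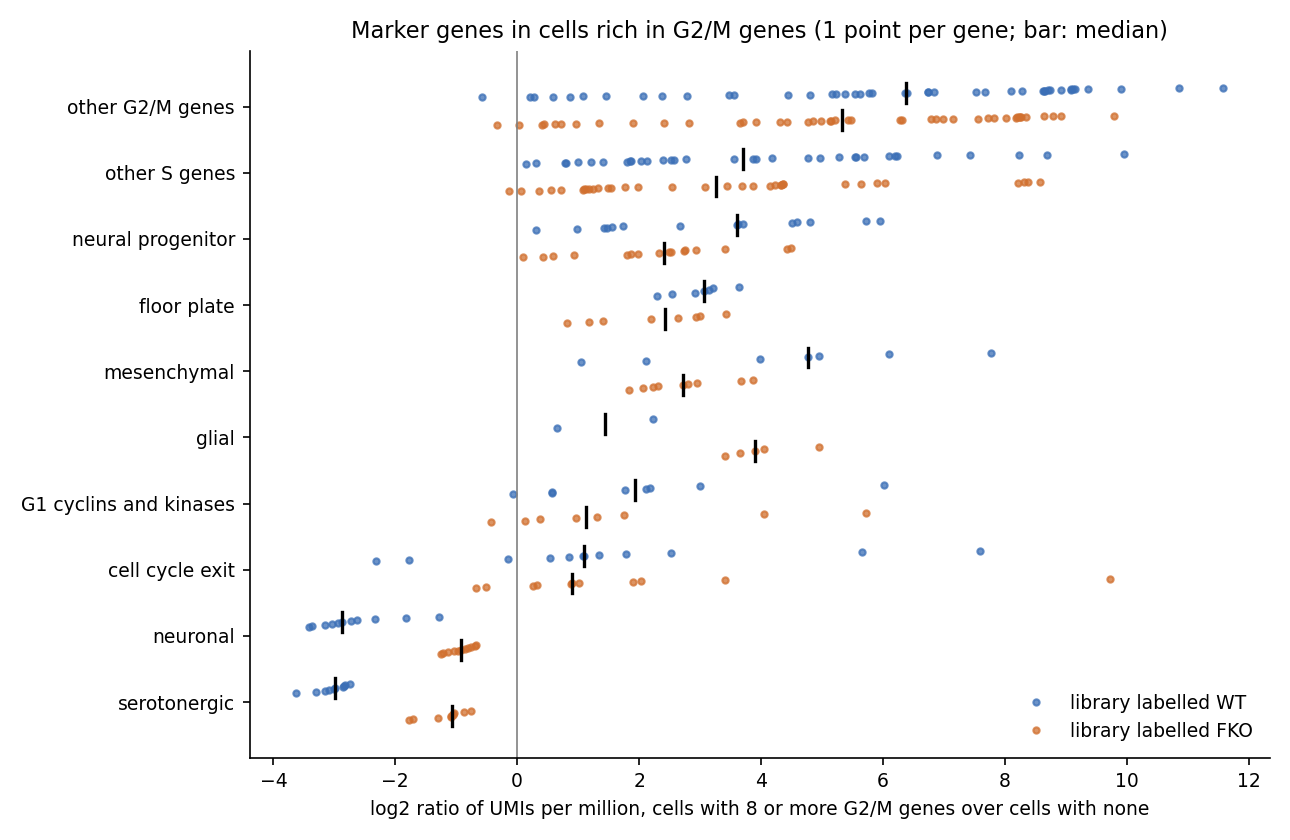
Log2 ratio of CPM in cells with 8 or more G2/M genes over cells with none, 1 point per listed gene with a ratio, the black bar being the list's median, for the WT-labelled library (blue) and the FKO-labelled library (orange). Serotonergic genes lie at medians of -2.99 and -1.07 and neural progenitor genes at 3.61 and 2.41.

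Genes of other cell types differed between the libraries in these cells. Mesenchymal genes were at least 2-fold higher for 7 of 7 genes with a ratio in both (5 of 5 with at least 100 UMIs in each). Their summed levels were 323 against 19.4 CPM in the WT-labelled library and 995 against 155 in the FKO-labelled library. Only 3 of 51 8-gene cells labelled WT held 3 or more of the list, against 24 of 79 labelled FKO. The median 8-gene cell had 171 and 360 CPM of it. COL1A1, a collagen of connective tissue, had 4.45 and 239 CPM in the 8-gene cells, and COL3A1, the most abundant mesenchymal gene in those labelled WT, had 170 and 195. Glial genes had a summed level of 16.9 CPM in the 8-gene cells labelled WT, with SOX10, OLIG1 and GFAP at 0, and 505 CPM in those labelled FKO, with GFAP at 0. SOX10, a factor of oligodendrocytes and neural crest glia, had 0 UMIs and 74.5 CPM, and S100B, the most abundant glial gene in both, had 13.4 and 288 CPM. SOX10 was detected in 39.2% of the 8-gene cells labelled FKO, in 0.917% of cells there with no G2/M gene, and in 0 of 51 8-gene cells labelled WT, which allows up to 6.98%. Against cells with no G2/M gene, the glial sum was 16.9 against 4.54 CPM in the WT-labelled library and 505 against 30.8 in the FKO-labelled one. The WT-labelled value rested on few UMIs, with 15 of S100B in 4 of 51 cells. Glial RNA was thus higher in the 8-gene cells of both libraries and reached a far higher level in the FKO-labelled library.

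Counted by cell, 0 of 51 8-gene cells labelled WT and 28 of 79 labelled FKO (35.4%, 25 to 47.0) had 3 or more glial genes, and 3 (5.88%) and 24 (30.4%) had 3 or more mesenchymal genes. Either held for 3 and 41 cells (51.9% of those labelled FKO). Without such cells, an exclusion chosen after these values were seen, 48 of 5714 (0.840%, 0.620 to 1.11) and 38 of 6750 (0.563%, 0.399 to 0.772) were 8-gene cells, so the order of the libraries turned. The share with 3 or more G2/M genes after thinning also turned, to 0.758% and 0.558%, and the ratio of the G2/M sum to -0.36, while that of the S sum was 0.12. Among the cells with glial or mesenchymal genes, 3 of 35 (8.57%, 1.80 to 23.1) and 41 of 228 (18.0%, 13.2 to 23.6) were 8-gene cells. The FKO-labelled library held more such cells, and their part in the difference beyond these counts was not tested.

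The 8-gene cells were not uniform. Per cell, FEV had a median of 151 CPM in the WT-labelled library and 116 in the FKO-labelled library, against 1622 and 937 in cells with no G2/M gene. In the WT-labelled library, 3 of 51 cells reached percentile 10 of the cells with no G2/M gene, which was 631 CPM. In the FKO-labelled library, 37 of 79 did (46.8%, 35.5 to 58.4), where that percentile was 129 CPM, and 27 had no FEV UMI. In shallow cells 129 CPM amounts to very few UMIs, so whether a cell reached it depended in part on its depth. At a common limit, chosen after these values were seen, 3 and 17 (5.88%, 1.23 to 16.2, and 21.5%, 13.1 to 32.2) reached 631 CPM and 29 and 37 (56.9%, 42.2 to 70.7, and 46.8%) reached 129 CPM, with intervals that overlapped at both limits. Of the 106 mesenchymal cells labelled FKO, 37.7% (28.5 to 47.7) reached 129 CPM. The 37 cells labelled FKO had 3994 CPM of STMN2 and 755 of GATA3, against 210 and 36.7 in the other 42, and 2664 CPM of VIM against 5062. The 3 cells labelled WT had 2050 CPM of STMN2 and 322 of GATA3, against 336 and 57.8 in the other 48. Neuronal RNA was thus higher in some 8-gene cells than in others in both libraries. The 37 cells were also deeper, with medians of 16991 against 9698 UMIs, and had higher doublet scores, 0.126 against 0.0595 (0.120 against 0.0694 for the 3 cells labelled WT), where a high score marks a profile like that of a mixture of 2 cells. The part of doublets in this result was not tested.

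**Figure D5:**
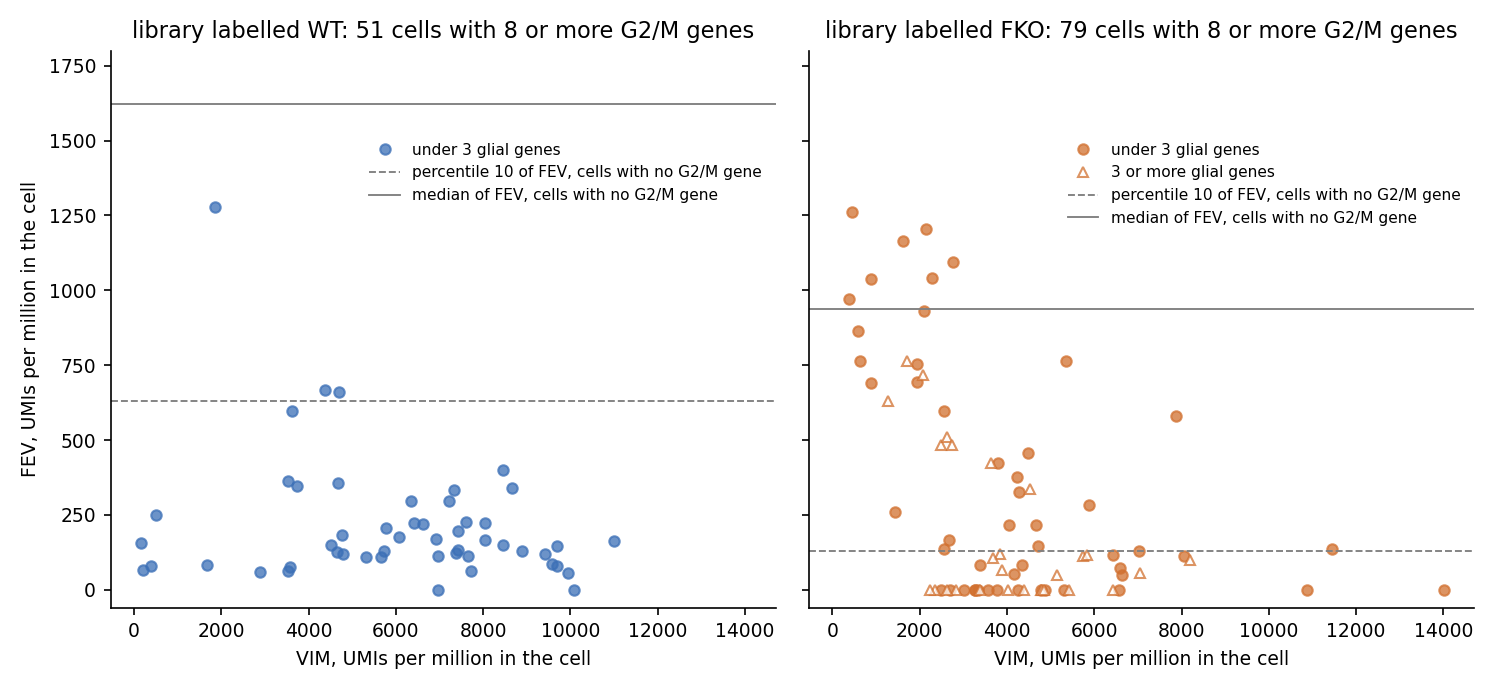
FEV against VIM, both in CPM, in each cell with 8 or more G2/M genes of the WT-labelled library (left, 51 cells) and the FKO-labelled library (right, 79 cells); open triangles are cells with 3 or more glial genes, and lines mark percentile 10 (dashed) and the median (solid) of FEV in cells with no G2/M gene. In the left panel 3 cells and in the right panel 37 cells reach the dashed line.

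Other genes of the cycle moved with the listed members. With at least 100 UMIs in each library, 19 of 24 other S genes and 26 of 33 other G2/M genes were at least 2-fold higher in the 8-gene cells than in cells with no G2/M gene in both libraries, against 7.96% of all genes. Without that limit 29 of 34 and 37 of 44 were. TK1, which salvages thymidine, had 64.1 against 0.0648 CPM in the WT-labelled library and 41.0 against 0 UMIs in the FKO-labelled library. Exceptions included JPT1, at -0.58 and -0.32, which did not mark these cells. Among G1 genes 3 of 7 were at least 2-fold higher in both (4 of 8 without the limit), led in level by CCND1, a G1 cyclin, with 226 against 28.2 and 318 against 19.3 CPM. Among genes of cell cycle exit 3 of 9 were (5 of 11 with a ratio in both without the limit, among them the CDK inhibitor CDKN2C with 31.2 against 0.162 and 30.4 against 0.0358 CPM). CDKN1C and CDKN2D, inhibitors abundant in the neurons, were lower, at -2.32 and -1.78 in the WT-labelled library and -0.51 and -0.67 in the FKO-labelled library.

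Between the libraries, the medians of these lists were set beside those of all genes. Other S genes had a median log2 ratio of 0.36 with 27 of 34 higher in the FKO-labelled library, and other G2/M genes had 0.41 with 34 of 44 higher, against 0.47 for genes that reached a CPM of 10 and 0.80 for genes with more than 3 UMIs. In these lists 2 of 34 and 3 of 44 genes were at least 2-fold higher, against 40.5% of all genes with more than 3 UMIs. The G1 list had a median of 0.65 and the exit list 0.40, with 2 of 8 and 2 of 12 genes at least 2-fold higher: CDK6 and CCND2, a G1 kinase and a G1 cyclin, and RBL1 and RBL2, relatives of RB1. ASPM, a spindle pole gene, had 3.36 and 9.77 CPM, a log2 ratio of 1.54, near that of MKI67. The other S, other G2/M and exit lists thus stood under both medians, and the G1 list between them.

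Genes outside the 40 whose pattern was most like that of the G2/M list were ranked by the ratio of cells with 3 or more G2/M genes over cells with none, taking the library nearer to 0, over the 2 libraries. By that measure 3.91% of 13232 genes were at least 2-fold higher in both and 0.0831% lower. The 10 highest were KIF2C (9.34 and 6.77), NUF2 (6.84 and 6.42), NDC80 (8.6 and 6.40), PIMREG (5.95 and 6.22), H1-5 (6.33 and 5.71), SGO1 (5.46 and 6.19), GTSE1 (6.50 and 5.27), CDCA8 (5.29 and 5.19), PCLAF (5.56 and 5.15) and ASPM (5.87 and 4.95). The 5 lowest were ENSG00000286648 (-1.58 and -2.89), HMX2 (-2.82 and -1.45), ENSG00000286353 (-1.51 and -1.34), FABP5P15 (-1.30 and -1.35) and THSD4-AS1 (-1.25 and -1.40), each on 2 to 20 UMIs in the cells with 3 or more G2/M genes. By this rule 0 of 10 serotonergic and 0 of 11 neuronal genes were lower in both libraries, whereas in the 8-gene cells 8 and 4 were.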

How the data were processed

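The deposited files hold UMI counts per gene and barcode that the authors made with Cell Ranger (7.1.0 per the matrix header, 7.0 per the submitters' notes; GRCh38). Cells were kept at 1000 or more UMIs, 500 or more genes and a mitochondrial share up to 10%, and barcodes ranked highest by Scrublet (scanpy 1.11.5; 0.8% per 1000 barcodes) were removed. CPM were pooled as a gene's UMIs over all UMIs. Where 1 side of a ratio had 0 counts, a floor of 3 was used in its place. Intervals (scipy 1.17.1, numpy 2.4.6, python 3.11.15) were exact Poisson, Clopper-Pearson or conditional binomial at 95%. The code was tested on simulated data. Ratios between cell classes for a member used cells chosen by the other G2/M members. Named besides the members were genes of fixed lists (other S and G2/M, G1, exit, serotonergic, neuronal, other neurons, progenitor, floor plate, mesenchymal, glial, pluripotent) and, among genes with at least 100 UMIs in each library, the 10 highest and 5 lowest in likeness. Members and lists were chosen with earlier results of these data known. Genes counted or singled out as examples outside these rules were chosen after their values were seen. Alternatives varied the filters, gene limits, thinning, scaling and leading gene. Gene lengths and promoters were from RefSeq.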

Additional observations from a re-analysis of the deposited data

Results flagged for a closer look

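Barcodes that the filters removed held G2/M genes in both libraries, at a larger share with 8 or more genes in the FKO-labelled library. Among its 620 barcodes marked as doublets, 9 had 8 or more G2/M genes (1.45%, 0.666 to 2.74), against 0 of 977 such barcodes in the WT-labelled library (up to 0.377%). Among all 1828 removed barcodes 12 had 8 or more (0.656%, 0.340 to 1.14), against 6 of 5303 in the WT-labelled library (0.113%, 0.0415 to 0.246). Both shares of the FKO-labelled library lay above the limit that a count of 0 allows, which a few cells suffice to pass. The kept cells of that library had 1.13% (0.897 to 1.41), inside the intervals of both shares. The removed barcodes enter only the alternatives with doublets kept, a mitochondrial limit of 20% or all barcodes.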

How the results depend on the processing

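Of 96 values under alternative settings, 30 stayed close to the value first given. Close meant within its counting interval or, for the 2 counts of members past 2-fold summed over directions, within 1.5 times of it. Another 61 moved beyond that, up or down, without a change of sign, and 5 changed sign, which shares cannot do. By direction, the counts went from 2 higher and 0 lower to 3 and 0 with no minimum and to 1 and 2 relative to the median gene. Of the values that stayed, moved and changed sign, 2, 9 and 5 were log2 ratios of the list sums, 10, 26 and 0 were shares of cells with 3 or more genes, 16, 24 and 0 were co-detection shares, and 0, 2 and 0 were shares of 8-gene cells that reached a FEV limit. The limit of 8 genes, the exclusion of cells with 3 or more glial or mesenchymal genes and the FEV limit of the other library were chosen after seeing the data. No paired analysis was possible because each group was 1 library.

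The log2 ratio of the S sum was 0.34 at a mitochondrial limit of 20%, -0.32 at 5%, 0.37 in all deposited barcodes, -0.21 scaled to the median gene ratio, 0.31 thinned to 2000 UMIs, 0.18 without RRM1 and 0.12 without the glial and mesenchymal cells. That of the G2/M sum was 0.42, -1.31, 0.48, -0.25 and 0.27 under the first 5 of these, 0.35 without HMGB2 and -0.36 without the glial and mesenchymal cells. Scaling to the median shifts every ratio by the same amount by construction. For the others the cause was not tested.

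The share of cells labelled WT with 3 or more G2/M genes was 4.03% at a mitochondrial limit of 20%, 9.71% at 5% and 3.57% in all barcodes, and that with 3 or more S genes was 10.8% at 20% and 9.54% in all barcodes. In the FKO-labelled library the S share was 9.89% with doublets kept and 9.42% at a limit of 5%, and the G2/M share was 3.35% without the glial and mesenchymal cells. Thinned to 2000 UMIs, the G2/M shares of the libraries labelled WT and FKO were 0.789% and 1.08% and the S shares 0.701% and 0.787%, and at 5000 UMIs they were 1.22% and 2.15% and 1.83% and 2.90%. With 2 or more genes the G2/M shares were 17.8% and 13.3% and the S shares 34.6% and 24.3%, with 5 or more they were 1.08% and 1.61% and 1.97% and 1.66%, and the G2/M shares with 8 or more were 0.887% and 1.13%. Fewer UMIs and a larger number of genes required lower such shares by construction, which does not hold for the mitochondrial limit. The order of the libraries, first with the larger G2/M share under the WT label, turned at 20% (4.03% and 4.15%), in all barcodes (3.57% and 4.35%), after both thinnings and with 5 or 8 genes. That of the S shares turned after both thinnings.

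FEV was detected in 87.9% (WT-labelled) and 93.8% (FKO-labelled) of G2/M cells at a mitochondrial limit of 5%, in 35.6% and 32.4% thinned to 2000 UMIs, in 75% and 53.3% at 5000, and in 90.3% and 65.2% with 5 or more genes. In the FKO-labelled library it was 88.4% with 2 or more genes, 65.8% with 8 or more and 86.7% without the glial and mesenchymal cells. TPH2 was detected in 45.5% and 69.5% at a limit of 5%, in 0% (0 of 45, up to 7.87%) and 8.11% thinned to 2000 UMIs, in 17.6% and 19.2% at 5000, in 33.9% and 26.8% with 5 or more genes and in 33.3% and 26.6% with 8 or more. It was 70.7% with 2 or more genes in the WT-labelled library, and 58.5% with doublets kept and 61.1% without the glial and mesenchymal cells in the FKO-labelled library. Of the 8-gene cells, 56.9% (WT-labelled) and 21.5% (FKO-labelled) reached the FEV limit of the other library. These values rest on unlike limits, and at 631 CPM in both libraries the shares were 5.88% and 21.5%. The order of the libraries turned at a limit of 5% for both genes, and after both thinnings for TPH2. Thinning acted on the choice of cells and on detection at once, and the causes were not tested apart. Depth limits all shares: 43 and 116 cells fell short of 2000 UMIs and 180 and 1392 of 5000.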

Other observations

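The list of other neuronal types had 2.67 CPM in those labelled WT and 27.4 CPM in those labelled FKO, against 26.4 and 33.8 CPM in cells with no G2/M gene. Of the pluripotency genes, POU5F1, NANOG, LIN28A and TDGF1 stood at 0 UMIs in the 8-gene cells of both libraries. DPPA4, detected in 26 of 51 8-gene cells labelled WT, had 59.7 and 6.84 CPM, against 1.20 and 0.323 CPM in cells with no G2/M gene.

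By mitochondrial share, the 8-gene cells ran opposite ways in the 2 libraries, with intervals that overlapped within each. The 8-gene cells were 8 of 340 kept cells with a share of at most 5% (2.35%, 1.02 to 4.58) and 43 of 5409 with 5 to 10% (0.795%, 0.576 to 1.07). In the FKO-labelled library they were 25 of 2888 (0.866%) and 54 of 4090 (1.32%).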
